A study of Mus musculus with 15 samples.

Results

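The transcription factor p53 acts on a set of target genes, and 31 of the best known in mouse were followed here through RNA-seq of the embryonic ventricle in 2 mouse lines with conditional alleles of Atf4, the gene of a stress-response transcription factor. The members were a list of gene symbols that was chosen with earlier results of these data known. Each was matched by gene identifier in tables of 78317 genes. They were sorted into 7 genes of cell cycle arrest, 12 of cell death, 3 of DNA repair, 5 of metabolism and 4 of RNA and translation. All 31 were found, and all 31 had enough counts to be tested, among 20269 genes that did.

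The libraries came from ventricles of C57BL/6 mouse embryos at embryonic day 11.5. The CDS line carries loxP sites around exons 2 and 3 of Atf4 and keeps its polyadenylation signal, and crossed to Xmlc2-Cre it gave 4 libraries labelled CDS knockout, set against 4 labelled CDS control. In the PAS line loxP sites flank the polyadenylation signal itself, and the same Cre gave 4 libraries labelled PAS knockout, set against 3 labelled PAS control. The genotype label of both control groups reads only Control, so whether they carried the loxP alleles or the Cre is not given in the sources used here. Xmlc2-Cre is active in cardiomyocytes, and other cell types of the ventricle, among them endocardium, epicardium and blood, were not its targets. No treatment was given. The labels conflict on the material. Titles name the heart, and tissue labels and the design text name its ventricle, but the protocol for RNA extraction names cultured cortical neurons.

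The protein p53, from the gene Trp53, is kept low in unstressed cells by the ubiquitin ligase Mdm2. Damaged DNA, disturbed ribosome assembly and other stresses stabilise it, and it then binds DNA and raises transcription of its targets. Some targets halt the cell cycle, foremost Cdkn1a, which codes for the inhibitor p21. Others prepare the cell for death, mend DNA or shift metabolism, and Mdm2 is itself a target that closes a feedback loop. In mouse, loss of Mdm2 from cardiomyocytes is known to kill the embryo through unchecked p53.

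Atf4 itself was read first as a check of the labels. Its level was 39.6, 48.1, 45.3 and 45.0 CPM (counts relative to the scaled total of the library) in libraries with the label CDS knockout, against 114, 112, 116 and 115 CPM in CDS controls. In the libraries labelled PAS knockout it was 304, 292, 288 and 259 CPM, against 98.9, 92.2 and 100 CPM in PAS controls. Messenger RNA of Atf4 was thus lower under the first label and higher under the second, and the counts do not show which stretch of the gene the fragments covered. PAS knockout is therefore used only as the name of the libraries with that label. The 8 cardiomyocyte markers summed to between 29182 and 33392 CPM in the knockouts and between 31309 and 34142 CPM in the controls, and the 6 neuron markers to between 33.0 and 46.3 CPM in the knockouts and between 28 and 37.2 CPM in the controls. Libraries held between 22623499 and 46472141 counts. CDS knockout 3 stood apart from its replicates, with a chi-square per degree of freedom of 50.3 to 62.6 between its counts and theirs, against at most 13.8 in the other replicate pairs.

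Before any contrast, the members spanned a wide range of levels. Levels between genes are given as FPKM, which divides CPM by the kilobases of exon of each gene. The most abundant per length was Ak1, an adenylate kinase that keeps the balance of adenine nucleotides, at 76.5 ± 0.413 FPKM in PAS controls and 78.6 ± 2.06 FPKM in CDS controls (SD, n = 3 and n = 4). Ccng1, which codes for cyclin G1, had 65.4 ± 1.73 FPKM in PAS controls and 67.2 ± 1.83 FPKM in CDS controls. Rps27l, a ribosomal protein gene close in sequence to Rps27, had 65.4 ± 4.90 and 66.8 ± 2.68 FPKM in the same 2 groups, so the order of Ccng1 and Rps27l was not resolved by their spread. Perp, a membrane protein of cell junctions, followed at 37.5 and 37.6 FPKM, and Plk2, a kinase of cell cycle checkpoints, at 34.1 and 34.6 FPKM. Cdkn1a ranked in the middle, the 16th in both control groups, at 5.71 ± 0.346 FPKM in PAS controls and 5.59 ± 0.684 FPKM in CDS controls. Its neighbours there, Tigar at 5.99 and 5.68 FPKM and Aen at 5.88 and 6.05 FPKM, did not differ from it beyond their spread. Eda2r ranked the 26th, at 1.16 ± 0.0827 FPKM in PAS controls and 1.19 ± 0.0787 FPKM in CDS controls. The 5 members below it, Pmaip1, Fas, Trp53cor1, Ptprv and Pvt1, had means of 0.0907 to 0.517 FPKM in the control groups.

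**Figure D1:**
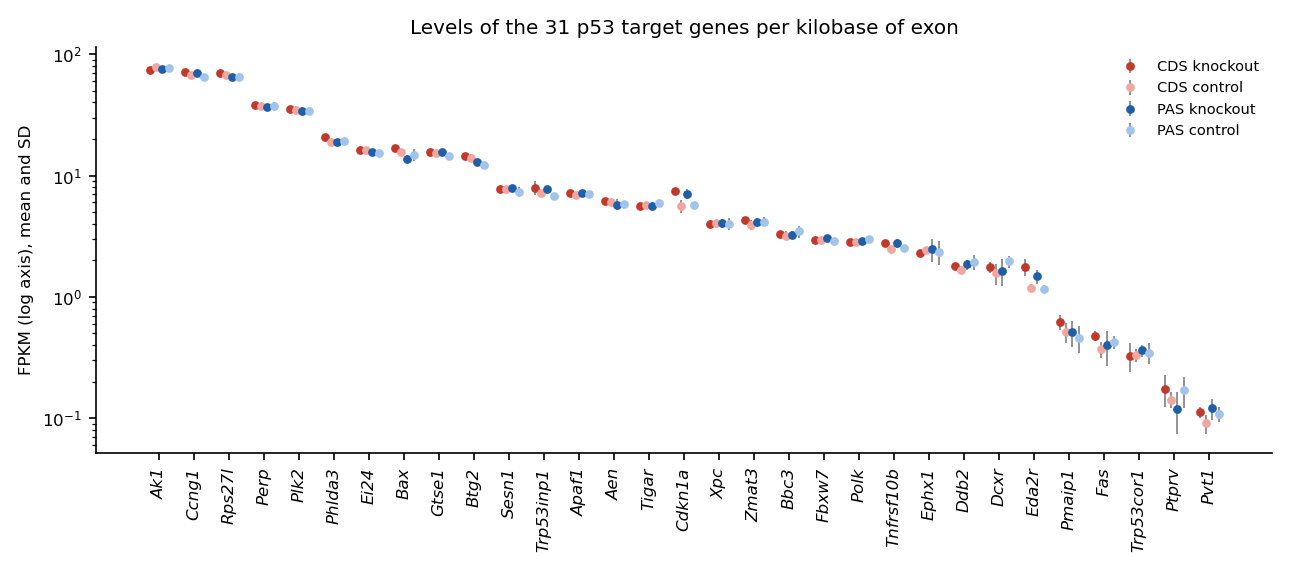
Mean FPKM (log axis) of each of the 31 p53 target genes in CDS knockouts, CDS controls, PAS knockouts and PAS controls, ordered by the level in CDS controls; error bars are SDs over 4 libraries, 3 in PAS controls. Levels run over nearly 3 orders of magnitude. At Cdkn1a and Eda2r the means of both knockout groups lie above those of both control groups. The same order of means is found in other members, among them Ccng1, Trp53inp1 and Tnfrsf10b.

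Across both lines together, Cdkn1a and Eda2r were called higher. Called lower were 0 of 31 members, where 12 of all 20269 genes tested were, so that 0 lies near the share of all genes. Estimates were positive in 23 members and negative in 8. Atf4 messenger RNA itself was lower than in controls in the libraries labelled CDS knockout (log2 -1.36 ± 0.05 SE). It was higher than in controls in those labelled PAS knockout (log2 1.56 ± 0.06 SE). In the mean of the 2 changes, with knockout against control taken within each line, Cdkn1a was 1.28-fold higher (log2 0.36 ± 0.06 SE, adjusted p = 0.00964) and Eda2r 1.37-fold higher (log2 0.46 ± 0.08 SE, adjusted p = 0.0256) by the quasi-likelihood test of edgeR, adjusted over all genes tested by the Benjamini-Hochberg method. The call of Eda2r was lost in 14 of 22 alternatives, among them limma-voom (adjusted p = 0.164), the replicate block (adjusted p = 0.593) and the omission of any of 10 single libraries, and that of Cdkn1a in 2. They were 2 of the 4 genes called higher in that mean, 0.0197% of all genes tested, and 16 genes were called in either direction (0.0789%). The 2 members are 6.45% of the list. That list was chosen with earlier results of these data known, so this share and the later shares of members are descriptions only. At an unadjusted p under 0.05 the mean of the changes took in 5 members, all higher (16.1% of the members), beside 1.86% of all genes higher and 3.70% in either direction. Since tissue of many cell types was sequenced, more RNA of a gene per cell and more cells of a type that carries it cannot be told apart.

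Neither line alone gave a called member. CDS knockouts had 0 of 31 members called, where 0.0543% of all genes were, and 6 members (19.4%) had an unadjusted p under 0.05, where 2.62% of all genes did. DESeq2 called 2 members in that line, Cdkn1a and Eda2r, and limma-voom called 0. PAS knockouts had 0 of 31 called, where 0.00987% of all genes were, and 4 members (12.9%) had an unadjusted p under 0.05, where 5.24% of all genes did. There DESeq2 and limma-voom called 0 members as well. Signs of the changes differed between the lines: 25 of 31 members were positive in CDS knockouts (median log2 change 0.071), where 49.4% of all genes were (median -0.001), and 16 of 31 in PAS knockouts (median 0.009), where 49.4% of all genes were (median -0.001). The count in CDS knockouts was 21 without CDS knockout 1 and 26 without CDS knockout 3. By library, 24, 21, 21 and 24 members lay above the CDS control mean in CDS knockouts 1 to 4, where 47.7% to 50.1% of all genes did. In PAS knockouts 1 to 4, 16, 20, 15 and 19 members lay above the PAS control mean, where 48.2% to 49.4% of all genes did.

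**Figure D2:**
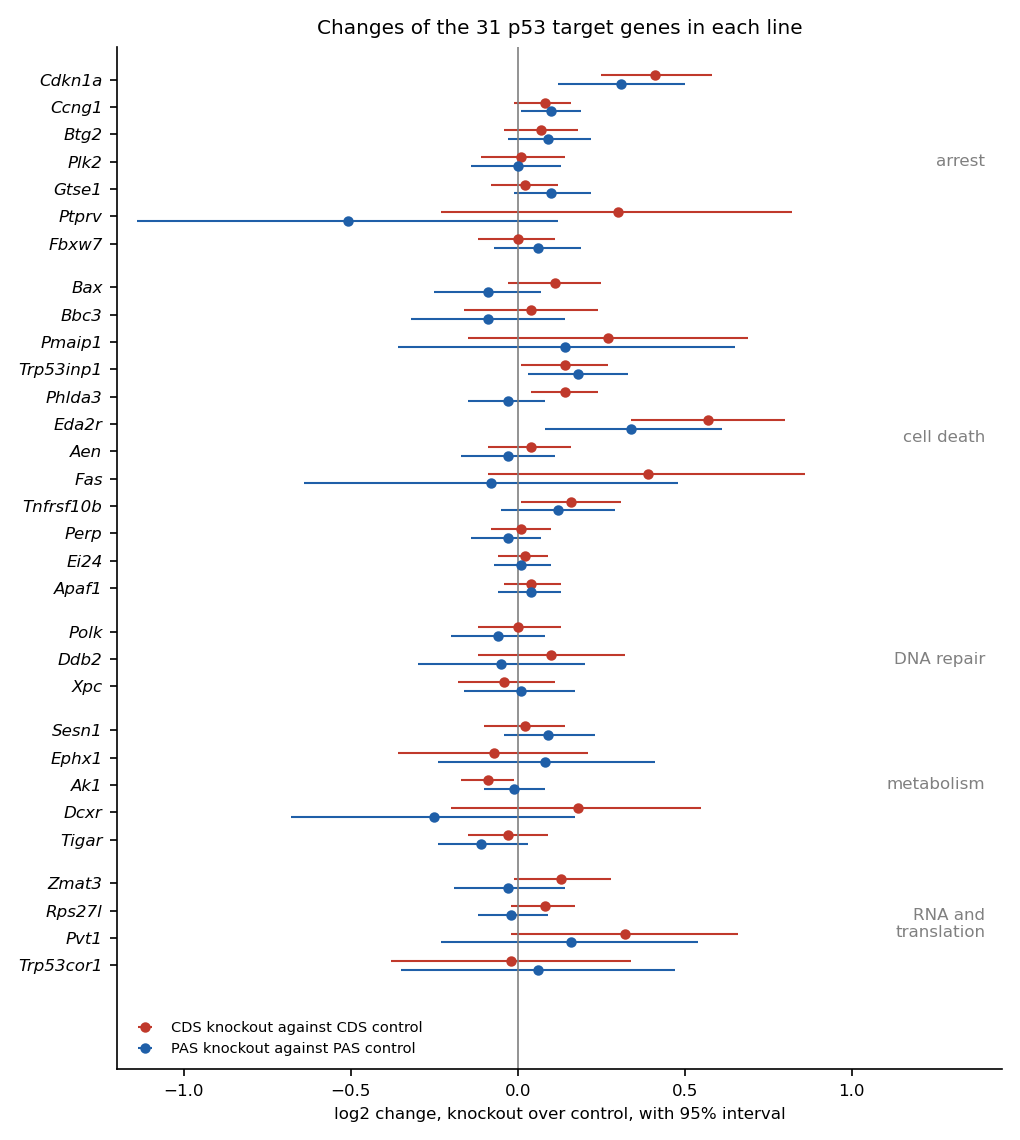
Log2 change of each of the 31 members, knockout over control, in the CDS line (red) and the PAS line (blue), grouped by role; bars are 95% intervals from edgeR. The intervals of Cdkn1a, Trp53inp1 and Eda2r lie above 0 in both lines, all 12 cell death genes have positive estimates in the CDS line, and the widest bars belong to genes of few counts such as Ptprv and Fas.

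Of the arrest genes, Cdkn1a moved in both lines. Its product p21 inhibits cyclin-dependent kinases and holds cells before DNA replication. It had 27.6, 25.7, 27.8 and 24.4 CPM in CDS knockouts, against 20.2, 18.2, 23.2 and 17.9 CPM in CDS controls. PAS knockouts had 24.1, 25.2, 28.6 and 22.6 CPM, against 18.9, 20.7 and 21.3 CPM in PAS controls. In both lines every knockout library lay above every control library, which was true of 6 of the 20269 genes (0.0296%). The change was 1.33-fold in CDS knockouts (log2 0.41 ± 0.08 SE, 95% interval 0.25 to 0.58, adjusted p = 0.0559) and 1.24-fold in PAS knockouts (log2 0.31 ± 0.09 SE, 0.12 to 0.50, adjusted p = 0.934, unadjusted p = 0.0024). The difference between the changes was 0.10 ± 0.12 on the log2 scale, with an interval of -0.15 to 0.35. The call in the mean of the 2 changes was lost without PAS control 1 (adjusted p = 0.0687), and with CDS knockouts 3 and 4 both left out (adjusted p = 0.0501). In CDS knockouts alone Cdkn1a was called without CDS control 3 (log2 0.49, adjusted p = 0.0047) and without PAS knockout 3, which enters only through the shared spread (adjusted p = 0.0316). The gene lies at chr17:29309950-29319701 on the plus strand (GRCm39), and 14.7% of its exon bases are shared with 2 genes on the opposite strand that had 12 and 105 counts in all libraries together, against 11002 of Cdkn1a.

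Promoter windows of 3 members are shown because they carry the contrast among the members: Cdkn1a and Eda2r were the genes called, and Ccng1 the most abundant arrest gene. Each is the 250 bases before the annotated start, 5′ to 3′ on the strand of the gene, from RefSeq (GRCm38.p6). Capitals mark exact matches to the 10-base p53 decamer RRRCWWGYYY (R is A or G, W is A or T, Y is C or T), of which 2 close to each other form a full p53 site. Inexact matches were not counted.
Cdkn1a, chr17:29090729-29090978, strand +: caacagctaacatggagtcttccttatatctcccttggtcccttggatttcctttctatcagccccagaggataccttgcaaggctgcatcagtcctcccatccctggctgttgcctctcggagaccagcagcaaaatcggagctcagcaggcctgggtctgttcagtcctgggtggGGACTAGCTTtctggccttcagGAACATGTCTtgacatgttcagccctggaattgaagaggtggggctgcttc
Eda2r, chrX:97377210-97377459, strand -: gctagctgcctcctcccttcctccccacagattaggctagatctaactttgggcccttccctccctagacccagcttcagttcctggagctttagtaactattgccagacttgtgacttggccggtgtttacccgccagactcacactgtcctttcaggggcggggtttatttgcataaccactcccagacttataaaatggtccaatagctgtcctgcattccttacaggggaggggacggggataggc
Ccng1, chr11:40755287-40755536, strand -: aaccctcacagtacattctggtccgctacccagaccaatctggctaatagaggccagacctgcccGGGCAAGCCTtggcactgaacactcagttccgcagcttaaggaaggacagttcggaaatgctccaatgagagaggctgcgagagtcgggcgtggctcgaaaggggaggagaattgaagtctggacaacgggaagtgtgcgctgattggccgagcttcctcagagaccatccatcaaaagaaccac
Cdkn1a had decamers beginning 73 and 51 bases before its upstream start, with 12 bases between them. The 10 bases directly after the second miss the decamer only at their first base, so they are not in capitals. Its other annotated window, at chr17:29093519-29093768, held none, nor did that of Eda2r, and Ccng1 had 1, beginning 185 bases before its start. A match is a description of letters and not evidence of binding.

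Among 21 members with an entry, 9 (42.9%) had at least 1 decamer on either strand in a window from 250 bases before to 50 after a start, against 9.6% of 27025 genes. They were Aen, Bax, Ccng1, Cdkn1a, Ei24, Gtse1, Polk, Rps27l and Sesn1. A pair of decamers with at most 13 bases between them was found in 1 member, Cdkn1a, and in 20 genes of all. Of the 2 called members, Cdkn1a had decamers and Eda2r had none. Ei24, with a decamer that ends at its start, changed by 0.02 ± 0.04 in CDS knockouts and 0.01 ± 0.04 in PAS knockouts on the log2 scale.

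The other arrest genes gave small changes. Ccng1, whose product steers a phosphatase to Mdm2, had 259, 249, 240 and 247 CPM in CDS knockouts, against 237, 244, 229 and 235 CPM in CDS controls. PAS knockouts had 228, 262, 245 and 249 CPM, against 230, 223 and 235 CPM in PAS controls. The groups overlapped in both lines, with log2 changes of 0.08 ± 0.04 SE (unadjusted p = 0.0785) and 0.10 ± 0.04 SE (unadjusted p = 0.0368). The mean of the 2 changes was 0.09 ± 0.03 (unadjusted p = 0.00856, adjusted p = 1). Plk2 had 146, 171, 150 and 160 CPM in CDS knockouts, against 139, 154, 162 and 166 CPM in CDS controls, and 140, 165, 154 and 152 CPM in PAS knockouts, against 156, 145 and 159 CPM in PAS controls. Its intervals of -0.11 to 0.14 and -0.14 to 0.13 on the log2 scale leave room only for changes of about 10% either way. Btg2, an antiproliferative cofactor of messenger RNA decay, gave 0.07 ± 0.05 in CDS knockouts and 0.09 ± 0.06 in PAS knockouts, with a mean of 0.08 ± 0.04 (unadjusted p = 0.0501). Gtse1, a cell cycle protein that restrains p53, gave 0.02 ± 0.05 and 0.10 ± 0.05, and Fbxw7, which marks cyclin E for destruction, gave -0.00 ± 0.06 and 0.06 ± 0.06. Ptprv, a phosphatase gene of p53-induced arrest in mouse, was at 0.55 to 1.74 CPM in all libraries. Its estimates of 0.30 ± 0.25 in CDS knockouts and -0.51 ± 0.30 in PAS knockouts rest on 13 to 62 counts a library.

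The cell death genes held the largest change, that of Eda2r. It codes for a receptor of the tumour necrosis factor receptor family that binds ectodysplasin A2, and lies on chromosome X (chrX:96377446-96420822, minus strand, GRCm39). Levels were 8.82, 10.9, 12.6 and 9.30 CPM in CDS knockouts, against 7.18, 6.36, 7.44 and 7.09 CPM in CDS controls. PAS knockouts had 7.32, 9.77, 8.21 and 9.49 CPM, against 7.40, 6.47 and 6.71 CPM in PAS controls. All CDS knockouts lay above all CDS controls, while PAS knockout 1 lay below the highest PAS control. The change was 1.48-fold in CDS knockouts (log2 0.57 ± 0.11 SE, interval 0.34 to 0.80, adjusted p = 0.0559) and 1.27-fold in PAS knockouts (log2 0.34 ± 0.13 SE, interval 0.08 to 0.61, adjusted p = 0.934, unadjusted p = 0.013). The difference between the changes was 0.22 ± 0.17 (unadjusted p = 0.196).

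The call of Eda2r in the mean of the 2 changes depended on single libraries. Its adjusted p lay between 0.0558 and 0.123 without any of CDS knockouts 2 and 3, CDS controls 1, 2 and 4, PAS knockouts 2 and 4 and PAS controls 1, 2 and 3, with log2 values of 0.40 to 0.49. In CDS knockouts alone it was called without CDS knockout 1 (log2 0.64, adjusted p = 0.0267), without PAS knockout 1 (0.0353) and without PAS knockout 2 (0.0386). CDS knockout 3, the library that stood apart, had its highest level, and without that library the change in CDS knockouts was 0.46. The 6 choroid plexus markers also stood high in 2 of the CDS knockouts, summing to 26.4, 33.3, 161 and 232 CPM in CDS knockouts 1 to 4, against 24.8 to 60.8 CPM in CDS controls, and none of the 6 was at 0 in all libraries. The 6 mesenchyme markers had positive changes in CDS knockouts, with 0 at an unadjusted p under 0.05. They summed to 2845 to 3417 CPM, against 2573 to 3145 CPM in CDS controls. In PAS knockouts all 6 mesenchyme markers had negative changes (median log2 -0.040), again with 0 at an unadjusted p under 0.05. Of the 8 markers of endothelium and endocardium, 7 had negative changes in CDS knockouts (median log2 -0.101, 4 with an unadjusted p under 0.05). These 8 summed to 1523 to 1610 CPM in CDS knockouts, against 1649 to 1717 CPM in CDS controls. In PAS knockouts 6 of the 8 had positive changes (median log2 0.046). With CDS knockouts 3 and 4 both left out, the change of Eda2r in CDS knockouts was 0.49 and that of Cdkn1a 0.42. The 8 cardiomyocyte markers had negative changes in CDS knockouts (8 of 8, median log2 -0.063, 2 with an unadjusted p under 0.05), summing to 29182 to 32291 CPM, against 31309 to 34142 CPM in CDS controls. The 6 erythroid markers had negative changes in PAS knockouts (6 of 6, median log2 -0.530) and in the mean of the 2 changes (6 of 6, median -0.321), with 0 at an unadjusted p under 0.05. They summed to 1136 to 2249 CPM in PAS knockouts, against 1282 to 3434 CPM in PAS controls, and to 1567 to 4270 CPM in CDS knockouts, against 1792 to 3908 CPM in CDS controls. The part of any of these cell types in the changes of Eda2r and Cdkn1a was not tested.

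**Figure D3:**
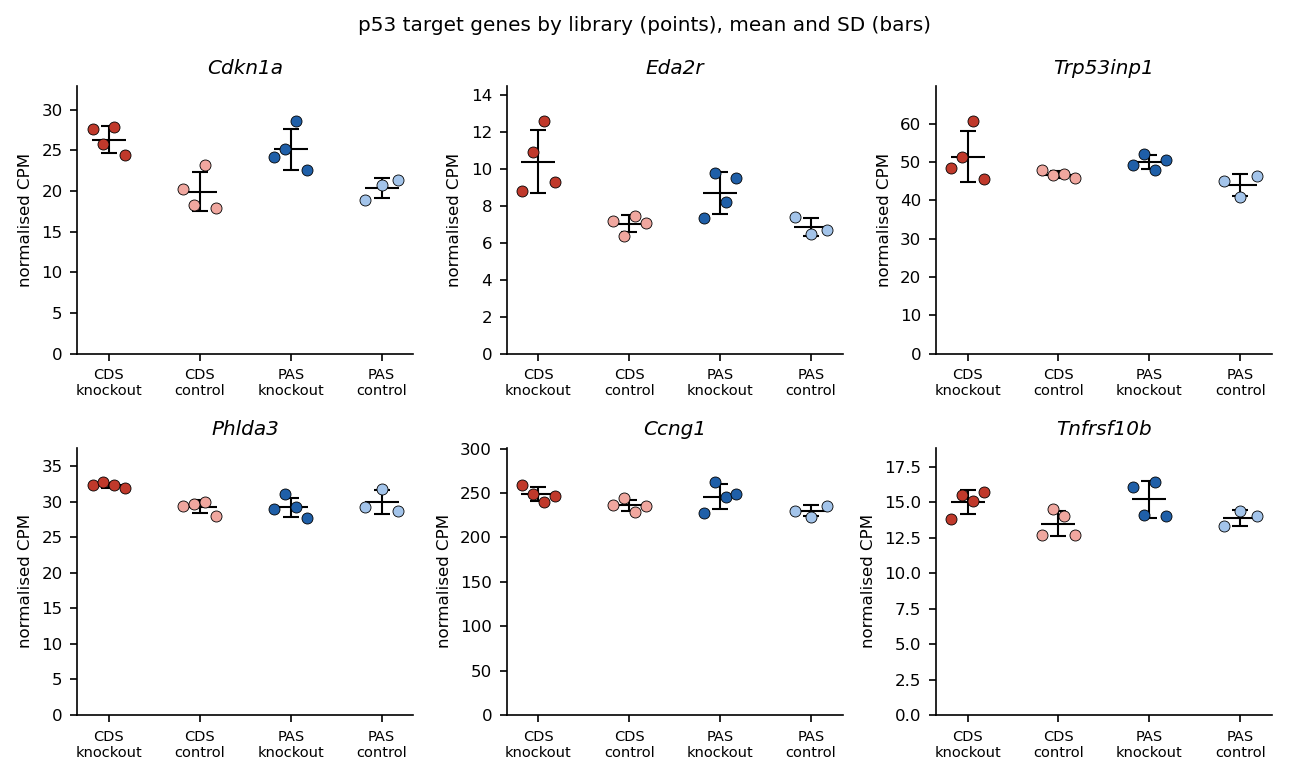
Normalised CPM of 6 p53 target genes in each library (points), with the mean and SD of each group (bars), for CDS knockouts, CDS controls, PAS knockouts and PAS controls. Cdkn1a is higher in every knockout library than in every control library of its line. The same holds for Eda2r and Phlda3 only in the CDS line and for Trp53inp1 only in the PAS line.

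Other death genes moved less. Trp53inp1, a stress protein that promotes autophagy and death, had 48.3, 51.2, 60.7 and 45.6 CPM in CDS knockouts, against 47.9, 46.5, 46.9 and 45.7 CPM in CDS controls. PAS knockouts had 49.1, 52.1, 47.9 and 50.4 CPM, against 44.9, 40.8 and 46.2 CPM in PAS controls. The groups overlapped in the CDS line, where CDS knockout 4 was the lowest of all, and did not overlap in the PAS line. Its log2 change was 0.14 ± 0.06 in CDS knockouts (unadjusted p = 0.0421), but 0.05 without CDS knockout 3, and 0.18 ± 0.07 in PAS knockouts (unadjusted p = 0.0202). The mean of the 2 changes, 0.16 ± 0.05, had an adjusted p of 1 and was called only where low-count genes were kept in the fit (adjusted p = 0.0428).

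Phlda3, which blocks the survival kinase Akt, had the smallest p of the members for a difference between the lines. Levels were 32.3, 32.7, 32.3 and 31.9 CPM in CDS knockouts, against 29.4, 29.7, 30.0 and 28 CPM in CDS controls, with no overlap. PAS knockouts had 29.0, 31.1, 29.2 and 27.7 CPM, against 29.3, 31.8 and 28.7 CPM in PAS controls, within each other's range. The log2 change was 0.14 ± 0.05 in CDS knockouts (unadjusted p = 0.00727) and -0.03 ± 0.05 in PAS knockouts (unadjusted p = 0.543), a difference of 0.18 ± 0.07 (unadjusted p = 0.0238, adjusted p = 0.995). It was the only member with an unadjusted p under 0.05 in the difference, 3.23% of the list against 4.16% of all genes, and 0 members were called there, where 0.00493% of all genes were, by edgeR, DESeq2 or limma-voom.

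Tnfrsf10b, the mouse death receptor for the ligand TRAIL, had 13.8, 15.5, 15.1 and 15.7 CPM in CDS knockouts, against 12.7, 14.5, 14.0 and 12.7 CPM in CDS controls. PAS knockouts had 16.1, 14.1, 16.4 and 14.0 CPM, against 13.3, 14.4 and 14.0 CPM in PAS controls. The groups overlapped in both lines, at 0.16 ± 0.07 (unadjusted p = 0.0412) and 0.12 ± 0.08 (unadjusted p = 0.149) on the log2 scale. Fas, another death receptor, was low, with 14 to 46 counts a library. Its level was 0.973, 1.1, 0.898 and 0.958 CPM in CDS knockouts, against 0.765, 0.877, 0.795 and 0.604 CPM in CDS controls, without overlap, yet its interval of -0.09 to 0.86 included 0 (unadjusted p = 0.104). In PAS knockouts it was 0.604, 0.960, 0.593 and 1.13 CPM, against 0.921, 0.961 and 0.745 CPM in PAS controls.

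The remaining death genes had intervals that included 0 in both lines. Bax, which opens the outer mitochondrial membrane, gave 0.11 ± 0.07 in CDS knockouts and -0.09 ± 0.08 in PAS knockouts. Bbc3 and Pmaip1, which code for the activators PUMA and NOXA, gave 0.04 ± 0.10 and 0.27 ± 0.20 in CDS knockouts and -0.09 ± 0.11 and 0.14 ± 0.24 in PAS knockouts. Apaf1, the scaffold of the apoptosome, gave 0.04 ± 0.04 in CDS knockouts and 0.04 ± 0.05 in PAS knockouts, and the nuclease gene Aen gave 0.04 ± 0.06 and -0.03 ± 0.07. Ei24, an endoplasmic reticulum protein of autophagy, had 80.1, 78.4, 81.5 and 77.6 CPM in CDS knockouts, against 79.4, 78.4, 79.8 and 76.7 CPM in CDS controls. It had 74.5, 80.4, 72.8 and 75.5 CPM in PAS knockouts, against 77.2, 75.7 and 72.2 CPM in PAS controls. Perp had 76.1, 72.0, 72.0 and 75.5 CPM in CDS knockouts, against 74.3, 73.7, 73.6 and 72.3 CPM in CDS controls. Its levels in PAS knockouts were 68.9, 70.3, 76.8 and 69.8 CPM, against 67.4, 72.4 and 79.6 CPM in PAS controls. The intervals of Ei24 were -0.06 to 0.09 in CDS knockouts and -0.07 to 0.10 in PAS knockouts on the log2 scale, and those of Perp -0.08 to 0.10 and -0.14 to 0.07. In all, the 12 death genes had positive estimates in CDS knockouts (12 of 12, median 0.126), and 6 of 12 did in PAS knockouts (median -0.007).

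None of the 3 DNA repair genes had an unadjusted p under 0.05 in either line. Xpc, which senses bulky lesions, had 20, 21.2, 23.0 and 23.3 CPM in CDS knockouts, against 22.3, 23.4, 22.1 and 21.8 CPM in CDS controls, and 20.2, 23.5, 21 and 23.9 CPM in PAS knockouts, against 24.6, 19.4 and 22.1 CPM in PAS controls. Polk, a polymerase that copies past lesions, had 16.6, 15.7, 16 and 15.2 CPM in CDS knockouts, against 15.7, 15.8, 15.6 and 16.3 CPM in CDS controls. PAS knockouts had 16.7, 16.6, 15.6 and 15.1 CPM of it, against 15.7, 16.9 and 17.4 CPM in PAS controls. Groups overlapped throughout, with log2 changes of -0.04 ± 0.07 and 0.01 ± 0.08 for Xpc and 0.00 ± 0.06 and -0.06 ± 0.07 for Polk. Ddb2, the partner that brings Xpc to ultraviolet damage, gave 0.10 ± 0.11 in CDS knockouts and -0.05 ± 0.12 in PAS knockouts. Its value is uncertain, since 23.8% of its exon bases overlap Acp2 on the opposite strand, which had 19757 counts against 2328 of Ddb2, and no strand was used in counting.

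Among the metabolic targets Ak1 had an unadjusted p under 0.05, in the downward direction. It had 200, 187, 180 and 198 CPM in CDS knockouts, against 204, 211, 198 and 203 CPM in CDS controls, a log2 change of -0.09 ± 0.04 (unadjusted p = 0.027, adjusted p = 1). CDS knockout 1 lay within the range of the controls. PAS knockouts had 194, 203, 189 and 201 CPM, against 198, 198 and 200 CPM in PAS controls, a change of -0.01 ± 0.04. Sesn1, a sestrin that restrains the growth kinase mTORC1, had 32.1, 31, 29.1 and 31.7 CPM in CDS knockouts, against 32.4, 30.7, 30.3 and 29.1 CPM in CDS controls. In PAS knockouts it had 31.3, 32.7, 29.3 and 31.5 CPM, against 30.6, 25.9 and 31.4 CPM in PAS controls. The changes of Sesn1, 0.02 ± 0.06 and 0.09 ± 0.07, were within the spread. Tigar, which lowers glycolytic flux, gave -0.03 ± 0.06 in CDS knockouts and -0.11 ± 0.07 in PAS knockouts. Ephx1, an epoxide hydrolase, gave -0.07 ± 0.14 and 0.08 ± 0.16, and Dcxr, a reductase of sugars, 0.18 ± 0.18 and -0.25 ± 0.21. The metabolic genes were positive in 2 of 5 cases in each line.

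The RNA and translation group held 2 coding genes and 2 long non-coding RNAs. Rps27l had 57.3, 58.8, 56.1 and 57.4 CPM in CDS knockouts, against 56.8, 55.6, 51.7 and 54.0 CPM in CDS controls, and its reads may be mixed with those of close copies. PAS knockouts had 52.9, 54.4, 50 and 53.5 CPM, against 50.3, 57.9 and 51.9 CPM in PAS controls. Zmat3, an RNA-binding splicing regulator, had 47.0, 51.8, 47.9 and 50.8 CPM in CDS knockouts, against 43.5, 39.3, 49.1 and 47.7 CPM in CDS controls. It had 44.8, 42.3, 50.6 and 50.1 CPM in PAS knockouts, against 43.2, 50.9 and 49.4 CPM in PAS controls. Both genes overlapped between the groups in each line, at 0.08 ± 0.04 and 0.13 ± 0.07 in CDS knockouts and -0.02 ± 0.05 and -0.03 ± 0.08 in PAS knockouts. Pvt1, the long non-coding neighbour of Myc, gave 0.32 ± 0.16 in CDS knockouts (unadjusted p = 0.0674) and 0.16 ± 0.19 in PAS knockouts at 1.56 to 3.11 CPM. Trp53cor1, known as lincRNA-p21, lies on the opposite strand beside Cdkn1a, at chr17:29233594-29298284 (GRCm39). It gave -0.02 ± 0.17 in CDS knockouts and 0.06 ± 0.20 in PAS knockouts at 1.88 to 3.54 CPM, and 19.8% of its exon bases overlap another gene on the other strand.

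Set side by side, the lines shared the direction of their changes in 14 members, 12 positive in both and 2 negative in both. Of the other members 13 were positive in CDS knockouts and negative in PAS knockouts, and 4 the reverse. The 12 positive in both are 38.7% of the members, where 23.6% of all genes were. The lines have separate controls, so their changes come from different libraries. Counted by libraries without overlap, 4 members (12.9%) lay higher in CDS knockouts than in all CDS controls, Cdkn1a, Eda2r, Phlda3 and Fas, where 1.48% of all genes did, and 0 lay lower, where 1.32% did. In PAS knockouts 2 members (6.45%) lay higher than all PAS controls, Cdkn1a and Trp53inp1, where 2.21% of all genes did, and 0 lay lower, where 2.38% did.

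**Figure D4:**
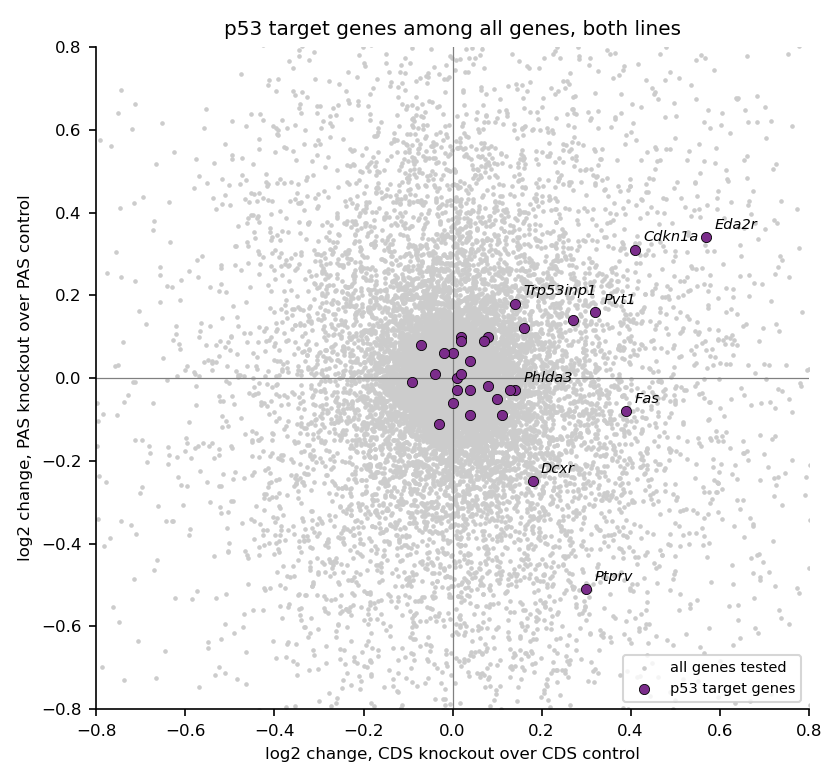
Log2 change in PAS knockouts against log2 change in CDS knockouts for the 31 members (purple) and all 20269 genes tested (grey); 766 genes beyond 0.8 on either axis are not drawn. Of the members, Eda2r (0.57 in CDS knockouts, 0.34 in PAS knockouts) and Cdkn1a (0.41 and 0.31) have the largest positive changes in both lines, and most others lie near 0.

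Of the listed genes that control p53 or lie further along its pathway, 0 were called in either line. Over all genes 0.0543% were called in CDS knockouts and 0.00987% in PAS knockouts. Trp53 had 97.5 ± 1.85 CPM in CDS knockouts, against 98.6 ± 2.40 CPM in CDS controls, and 95.6 ± 3.72 CPM in PAS knockouts, against 90.0 ± 3.98 CPM in PAS controls (SD, n = 4, 4, 4 and 3). Its log2 change was -0.02 ± 0.04 in CDS knockouts and 0.09 ± 0.04 in PAS knockouts (unadjusted p = 0.0495, adjusted p = 0.951). Between the controls, PAS over CDS, Trp53 itself differed by -0.13 ± 0.04 (unadjusted p = 0.00431, adjusted p = 0.262). Mdm2, both its inhibitor and a classical target, had 73.8 ± 1.42 CPM in CDS knockouts, against 73.0 ± 2.14 CPM in CDS controls, and 75.0 ± 3.42 CPM in PAS knockouts, against 72.6 ± 2.82 CPM in PAS controls. The intervals of Mdm2, -0.06 to 0.10 and -0.04 to 0.14, lay below the estimates for Cdkn1a of 0.41 and 0.31. In the PAS line the interval of Mdm2 overlapped that of Cdkn1a, 0.12 to 0.50, and in the CDS line it did not (0.25 to 0.58). The changes of these genes were not tested against each other. Of 15 listed regulators 13 could be tested and 0 were called in either line. Mdm4, a relative of Mdm2, changed by 0.08 ± 0.03 in CDS knockouts (unadjusted p = 0.0297). Trp63, a relative of Trp53, changed by 1.20 ± 0.45 in PAS knockouts (unadjusted p = 0.0135) at 0.11 to 0.782 CPM in that line. PAS controls held only 3, 4 and 10 counts of Trp63. In CDS knockouts Trp63 changed the other way, by -0.67 ± 0.38 (unadjusted p = 0.0908). The difference between its changes was -1.87 ± 0.59 (unadjusted p = 0.00422, adjusted p = 0.995).

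Of 24 further p53 targets, 22 could be tested. In either line 0 were called, where 0.0543% of all genes were in CDS knockouts and 0.00987% in PAS knockouts. Positive were 11 of 22 in CDS knockouts (median -0.005) and 15 of 22 in PAS knockouts (median 0.029). Of all genes 49.4% were positive in each line. Gadd45a, a stress protein of growth arrest, was at 1.21, 1.07, 1.35 and 1.3 CPM in PAS knockouts, against 2.06, 1.92 and 1.97 CPM in PAS controls. That is a log2 change of -0.69 ± 0.23 (unadjusted p = 0.0057, adjusted p = 0.934), opposite in direction to Cdkn1a, and it was 0.18 ± 0.20 in CDS knockouts. The difference between the changes of Gadd45a was 0.87 ± 0.30 (unadjusted p = 0.00815, adjusted p = 0.995). Its mean was also higher in PAS controls, 1.99 CPM, than in CDS controls, 1.43 CPM (log2 0.49 ± 0.22, unadjusted p = 0.035, adjusted p = 0.465). PAS knockouts had a mean of 1.23 CPM. Dgka, a lipid kinase, changed by 0.22 ± 0.10 in PAS knockouts (unadjusted p = 0.0391). Through p21 the repressor complex DREAM silences cell cycle genes, and 18 such genes, among them Ccnb1, Cdk1 and Mki67, were all tested. Of these 0 were called in either line and 0 had an unadjusted p under 0.05. Over all genes 2.62% had one in CDS knockouts and 5.24% in PAS knockouts. Among 18 genes a count of 0 lies near these shares. Their changes lay between -0.06 and 0.05 in CDS knockouts (4 of 18 positive, median -0.015) and between -0.01 and 0.09 in PAS knockouts (15 of 18 positive, median 0.050).

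**Figure D5:**
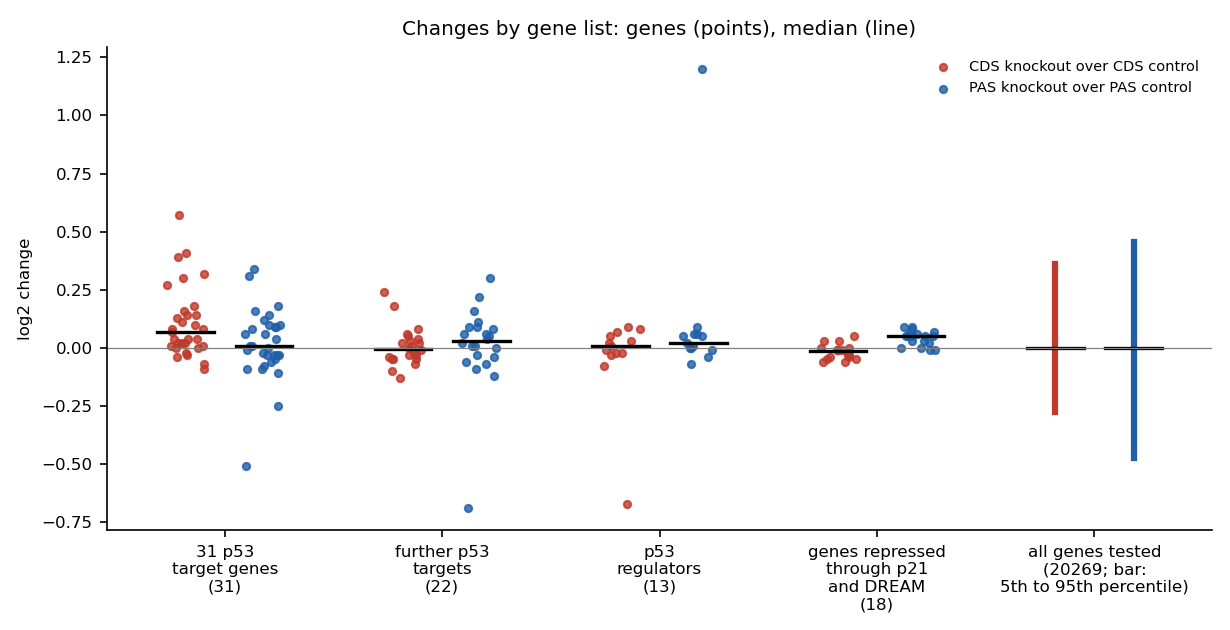
Log2 changes in CDS knockouts (red) and PAS knockouts (blue) for the 31 members, 22 further p53 targets, 13 regulators and 18 genes repressed through p21 and DREAM (points, with the median as a line), beside the median and the 5th to 95th percentile of all 20269 genes (bars). Of the lists drawn, the members have the highest median in the CDS line, 0.071, but the lowest in the PAS line, 0.009. Medians in the PAS line are 0.029 for the further targets, 0.022 for the regulators and 0.050 for the DREAM genes. The DREAM genes stay within 0.10 of 0.

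For the members, the controls of the 2 lines were set against each other last. In PAS controls against CDS controls 0 of 31 members were called by edgeR, DESeq2 or limma-voom, where 0.143% of all genes were called by edgeR, and 1 member (3.23%) had an unadjusted p under 0.05, where 9.60% of all genes did. That member was Btg2, at 35.7, 31.4 and 33.3 CPM in PAS controls, against 35.4, 42.2, 36.6 and 38.2 CPM in CDS controls (log2 -0.19 ± 0.06, unadjusted p = 0.00445, adjusted p = 0.266). Cdkn1a differed by 0.03 ± 0.09 and Eda2r by -0.03 ± 0.13 between these groups. The lines were counted in separate runs, so line and run cannot be told apart.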

How the data were processed

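The deposited files hold raw counts of fragments per gene, which the authors made, per the file headers, with featureCounts 2.1.1 on paired ends, over GENCODE mouse release 37 exons (GRCm39). The headers show no strand option, and each line was counted in its own run. The submitters' processing notes name HISAT2 2.2.1 and STAR 2.7.11b without saying which was used. The exon length that gives FPKM was deposited with the counts. Gene names were taken by identifier from GENCODE release 21.

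Genes were kept by filterByExpr (minimum count 10) and scaled by trimmed mean of M values (factors 0.986 to 1.01). The 15 libraries were fitted with 1 mean per group (11 residual degrees of freedom) by the robust quasi-likelihood method of edgeR 4.0.16 in R 4.3.3, after a test on simulated data, and a Benjamini-Hochberg adjusted p under 0.05 made a call. Standard errors come from the F statistic. The contrasts compared knockout with control within each line, and took the difference and the mean of both changes, and PAS control against CDS control. Replicates are biological per the design text, and no pair of libraries agreed within sampling noise. Alternatives were DESeq2 1.42.0, limma-voom (limma 3.58.1), DESeq2 size factors, no low-count filter, a non-robust fit, fits of the compared groups alone, a replicate block, and omission of libraries.

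Every member is accounted for. Values by library are given for members with an unadjusted p under 0.05 in a knockout contrast and for the 2 members of each role with the highest mean CPM, and for Btg2, Fas, Gadd45a and Atf4 by choice after their values were seen. From the pathway lists, genes with an unadjusted p under 0.05 in either line were named, with Trp53 and Mdm2, and 3 of the DREAM genes by name only. Members and lists were chosen with earlier results of these data known. Libraries held 22623499 to 46472141 counts, so that counting error limits only the lowest members.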

Additional observations from a re-analysis of the deposited data

How the results depend on the processing

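The sign of the changes of Cdkn1a, Ccng1, Trp53inp1, Phlda3, Eda2r, Tnfrsf10b and Ak1, in the contrasts where their unadjusted p was under 0.05, held under all alternatives run, and so did the sign of the members' median in CDS knockouts and in the mean. Cdkn1a ranged over 0.33 to 0.40 in the mean of the 2 changes on omission of single libraries. Members with a positive change numbered 25 to 27 in CDS knockouts, 16 to 17 in PAS knockouts and 21 to 24 in the mean under the other alternatives, and 21 to 26, 14 to 19 and 19 to 24 on omission of single libraries. The members' median in PAS knockouts was 0.009, and -0.023 without PAS knockout 2. DESeq2 size factors left these counts and the member calls as they were.

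Members called in CDS knockouts numbered 2 with no filter on low counts and 2 by DESeq2, against 0, and 0 to 1 on omission of single libraries. In the mean of the 2 changes they numbered 3 with no filter on low counts (Trp53inp1 in addition), 1 by limma-voom, 1 in the non-robust fit and 0 with CDS knockouts 3 and 4 both left out, against 2, and 0 to 2 on omission of single libraries. Called genes in CDS knockouts were 31 with no filter and 20 by DESeq2, against 11. In PAS knockouts they were 7 with no filter, 7 by DESeq2 and 1 with only the groups compared, against 2. In the difference they were 3 with no filter, 2 by DESeq2 and 2 by limma-voom, against 1, and 1 to 2 on omission of single libraries. In the mean of the changes they were 28 with no filter and 10 with CDS knockouts 3 and 4 left out, against 16. Between the controls they were 201 with no filter, 101 by DESeq2 and 10 with only the groups compared, against 29, and 15 to 43 on omission of single libraries. Fewer samples entered the fits of the compared groups; otherwise the cause was not tested.

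Deviations of same-numbered knockout and control libraries from their group means had correlations of -0.203 to 0.0636 over 7 pairs. Differently numbered pairs gave -0.149 to 0.215. Such correlations cannot show whether a number marks a shared litter or day, which the labels do not state. The main fit took the libraries as unpaired. With a replicate block within each line, 1 member was called in CDS knockouts (Cdkn1a, adjusted p = 0.0222) and 1 in the mean of the changes (Cdkn1a, 0.00674), where Eda2r had 0.593. Called genes under the replicate block numbered 1 in PAS knockouts, 8 in the mean and 4 between the controls. Counts limit the lowest members: Fas, Ptprv and Pmaip1 had at most 80 a library.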
